A study of Mus musculus with 15 samples.

Results

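The genes described here are the neighbours of Slc1a4 on mouse chromosome 11, which in these animals is the targeted gene. A list of 39 gene names from a stretch of about 5 Mb on either side of Slc1a4 was matched to the deposited expression table, and a gene was kept if its normalized count was 10 or more in at least 3 of the 15 libraries. All 39 names were found, 1 of them (Rab1) under its current symbol Rab1a, and 38 genes were kept, of 26595 genes in the table and 17030 that met the same minimum. B3gnt2, the gene of a poly-N-acetyllactosamine synthase, was the name left out, with group means of 4.15 to 7.39 normalized counts.

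The RNA came from 2 forebrain tissues, cerebral cortex and striatum, dissected from C57Bl/6 males at an age of 5 months. The mice either carried the Slc1a4 -/- genotype, called KO, or were wild type, called WT. Slc1a4 encodes ASCT1, a neutral amino acid transporter that carries serine, alanine, cysteine and threonine. There were 4 libraries of KO cortex (replicates 1 to 4), 4 of WT cortex (5 to 8), 3 of KO striatum (2 to 4) and 4 of WT striatum (5 to 8). The labels used here give neither the exons removed, nor the cells in which the allele was made, nor the number of crosses to C57Bl/6, and they do not say that replicates are separate animals, so the spread behind each p-value may be partly technical. Libraries held 22990233 to 30276815 counted reads.

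A constitutive knockout can differ from its wild type near the targeted gene in ways that do not pass through the lost protein. An inserted cassette or a removed regulatory element can alter the transcription of neighbouring genes, and chromosome flanking the target can be inherited together with the allele from the strain in which it was made. The neighbours therefore ask whether the transcript differences of the KO were local to the locus.

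In the GRCm38 annotation of GENCODE (release M21), Slc1a4 occupies chr11:20302180-20332713. Distances are given from its transcription start to that of the neighbour, negative towards lower coordinates. The 38 genes started between -3824.2 kb (Sec61g, a subunit of the protein-conducting channel of the endoplasmic reticulum) and 3745.3 kb (Bcl11a, a zinc finger transcription factor). Of these, 9 started within 1 Mb, 8 at 1 to 2.5 Mb and 21 farther away. The nearest on the lower side were Cep68 (-83.3 kb), whose protein ties centrosomes together, Rab1a (-131.3 kb), a GTPase of transport from endoplasmic reticulum to Golgi, and Actr2 (-219.8 kb), a subunit of the actin-nucleating Arp2/3 complex. The nearest on the other side were Sertad2 (210.5 kb), a transcriptional coregulator, Aftph (408.9 kb), an adaptor of clathrin trafficking, and Lgalsl (498.3 kb), which encodes a galectin-like protein.

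The 250 bases before the RefSeq start (GRCm38.p6) are shown for 4 neighbours, 5′ to 3′ on the gene's own strand, since the question is one of local regulation. Cep68 (chr11:20249425-20249674, minus strand) and Sertad2 (chr11:20542916-20543165, plus strand) are the nearest genes on either side. Wdpcp (chr11:21572031-21572280, plus strand), a planar cell polarity effector, starts 132 bases from the oppositely transcribed Mdh1. The 2 genes overlap there and share 52 exon bases, so the Wdpcp window lies inside Mdh1. It also runs past the GENCODE start of Wdpcp at 21572235. Meis1 (chr11:19018970-19019219, minus strand), a homeobox transcription factor, had the largest difference between the tissues. Capitals mark each GC box (GGGCGG, or CCGCCC on the other strand) and each CCAAT box (CCAAT, or ATTGG on the other strand).
Cep68: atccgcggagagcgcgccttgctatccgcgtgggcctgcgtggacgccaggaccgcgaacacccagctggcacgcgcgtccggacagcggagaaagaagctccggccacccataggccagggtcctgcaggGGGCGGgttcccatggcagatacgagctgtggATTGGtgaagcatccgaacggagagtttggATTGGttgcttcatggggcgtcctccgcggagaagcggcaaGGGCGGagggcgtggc
Sertad2: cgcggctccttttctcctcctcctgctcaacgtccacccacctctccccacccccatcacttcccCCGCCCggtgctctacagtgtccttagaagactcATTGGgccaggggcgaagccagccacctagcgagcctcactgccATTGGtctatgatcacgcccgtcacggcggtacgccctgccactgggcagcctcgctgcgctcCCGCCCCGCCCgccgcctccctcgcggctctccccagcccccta
Wdpcp: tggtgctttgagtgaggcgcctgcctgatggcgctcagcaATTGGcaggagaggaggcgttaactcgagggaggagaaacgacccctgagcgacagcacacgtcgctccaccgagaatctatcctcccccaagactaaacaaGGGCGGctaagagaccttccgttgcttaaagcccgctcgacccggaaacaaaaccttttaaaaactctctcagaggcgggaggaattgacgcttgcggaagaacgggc
Meis1: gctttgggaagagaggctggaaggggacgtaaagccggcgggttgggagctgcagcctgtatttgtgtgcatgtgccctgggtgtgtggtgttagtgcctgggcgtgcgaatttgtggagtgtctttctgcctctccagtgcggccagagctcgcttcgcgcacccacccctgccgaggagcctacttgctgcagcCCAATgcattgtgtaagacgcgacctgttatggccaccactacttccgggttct

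Windows were found for 36 of the 38 neighbours. A GC box on either strand lay in 28 of them (77.8%), against 32.7% of 32851 windows of all genes, and a CCAAT box in 19 (52.8%), against 33.8%. The motif TATAAA, on either strand, lay in 2 (5.56%), against 12.4% of all windows. The median GC content of the neighbours' windows was 61.4%, against 52.4%, and their median number of CpG dinucleotides was 17, against 6. Cep68 held 2 GC boxes and 2 CCAAT boxes, Sertad2 held 3 GC boxes, of which 2 overlap by 1 base, and 2 CCAAT boxes, Wdpcp held 1 of each, and Meis1 held 1 CCAAT box. These matches describe letters in a window, and all windows include many genes that were too low here to be tested.

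The neighbours covered a wide range of levels, and most repeated well between libraries. Per kb of exon and averaged over the 4 groups, Ppp3r1, the regulatory subunit of calcineurin, stood highest at 6357 normalized counts per kb. Mdh1, the cytosolic malate dehydrogenase, had 5844, Actr2 1904 and Rab1a 1426. Fbxo48, an F-box gene, was lowest at 11.03, below Meis1 at 19.78, the forebrain homeobox gene Otx1 at 20.52 and the ciliary gene Fam161a at 21.33. On this per-kb scale the rest, in falling order, ran from Ugp2 (882.7), the enzyme that makes UDP-glucose, through Lgalsl, Cct4, Spred2, Xpo1, Aftph, Usp34, Pno1, Cnrip1, Ehbp1, 0610010F05Rik, C1d, Pex13, Peli1, Ahsa2, Sec61g, Sertad2, Bcl11a, Cep68, Vps54, Plek, Papolg, Wdr92, Pus10, Etaa1, Tmem17, Egfr, Wdpcp and Commd1 to Rel (24.31), a subunit of NF-kappaB. The coefficient of variation within a group had a median over the 38 genes of 5.43% in KO cortex, 7.15% in WT cortex, 10.4% in KO striatum and 7.39% in WT striatum. Over all tested genes, which were not matched for level, these medians were 8.19%, 8.69%, 15% and 12%. The highest values among the 38 genes were 61.1% in KO striatum (Otx1) and 47.5% in WT striatum (Fam161a). Some neighbours share exon sequence, and the strand setting of the authors' counting is not given in the sources used here, so their counts are uncertain: 47.2% of the exon bases of Ahsa2 lie opposite Usp34, 18.5% of those of Wdr92 lie in Ppp3r1 on the same strand, and Plek and Cnrip1 share 199 bases on opposite strands. Commd1 shares 294 exon bases with Gm28048 on the same strand and 412 with Zrsr1 on the opposite strand. Of the exon bases of B3gnt2, the name left out, 58.6% lie in Gm28048 on the same strand. Gm28048 itself has no values in these data.

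The libraries matched their labels at the targeted gene. Slc1a4 stood at 248.7 to 307.9 normalized counts in KO cortex and at 1494 to 1797 in WT cortex. In striatum it stood at 157.7 to 343.8 in KO and at 1237 to 1726 in WT. The groups did not overlap in either tissue (exact permutation test, two-sided, p = 0.029 in each, the smallest the design allows). Marker levels matched the tissue labels too, but striatum libraries differed in regional makeup. The summed normalized count of 12 markers of striatal projection neurons was 54142 to 121187 in KO striatum and 104160 to 225525 in WT striatum, against 11392 to 26320 in cortex. That of 10 markers of cortical excitatory neurons was 8200 to 13377 in KO striatum and 5062 to 8732 in WT striatum, against 55553 to 62123 in cortex. KO striatum replicate 4 and WT striatum replicate 8 were the lowest of their groups for striatal markers and the highest for 6 markers of thalamus, septum and pallidum, at 37701 and 22730. KO striatum replicate 4 and WT striatum replicate 5 had 89936 and 146664 for 8 choroid plexus markers, against 628.9 to 6837 in every other library. In each of these lists every marker was detected, and their part in the neighbours' values was not tested.

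**Figure D1:**
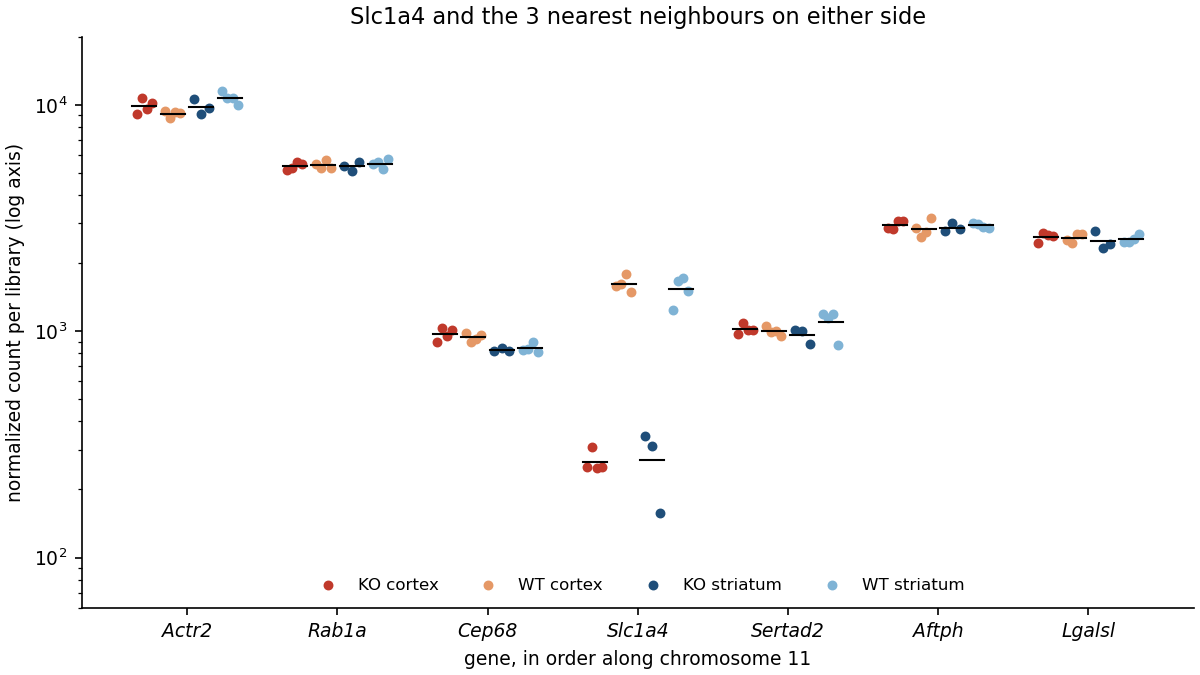
Normalized count per library (log axis) of Slc1a4 and its 3 nearest neighbours on either side, in order along chromosome 11; each point is 1 library, coloured by group, and black lines are group means. In Slc1a4 the KO libraries (157.7 to 343.8) sit below all WT libraries (1237 to 1797), while in each of the 6 neighbours the KO and WT points of a tissue overlap.

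The first question was whether the genes next to Slc1a4 changed with it. None was called: in the 6 nearest genes KO and WT libraries overlapped in both tissues, and the fitted differences were a small part of that of Slc1a4, whose log2 fold change was -2.61 in cortex and -2.56 in striatum (limma adjusted p = 1.22e-05 and 2.28e-05). In cortex Cep68 read 893.7, 1031.3, 951.8 and 1017 normalized counts in KO and 977.5, 895.7, 921.4 and 963.5 in WT, a log2 fold change of 0.05 (95% interval -0.07 to 0.17). In striatum it read 817.9, 846 and 819.3 in KO and 823.4, 836.2, 892.9 and 808.7 in WT, a log2 fold change of -0.02 (-0.15 to 0.11). Cep68 is the closest of the 38 genes, and its intervals span zero on a narrow range.

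Sertad2, the first gene on the other side, read 972.1, 1091.1, 1012.7 and 1017 in KO cortex and 1057.6, 996.5, 1001.8 and 948.5 in WT cortex, a log2 fold change of 0.03 (-0.16 to 0.22). In striatum it read 1014.9, 998.3 and 880.7 in KO and 1187.4, 1142.1, 1190.2 and 870.1 in WT, a log2 fold change of -0.18 (-0.39 to 0.03). The low WT value is that of replicate 8, and the other WT libraries lie above every KO library. Without WT replicate 8 the log2 fold change of Sertad2 was -0.28 with a limma adjusted p of 0.0593, the lowest it reached over the alternatives, where the highest was 0.77. Rab1a differed by -0.02 in cortex and -0.04 in striatum, Aftph by 0.06 and -0.04, and Lgalsl by 0.01 and -0.03, all as log2 fold changes. Their counts overlapped between the genotypes in every case, from 5108 to 5761 for Rab1a, 2614 to 3151 for Aftph and 2339 to 2768 for Lgalsl over all 15 libraries.

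Actr2 had fold changes of opposite sign in the tissues. In cortex it read 9153, 10708, 9618 and 10193 in KO and 9382, 8746, 9257 and 9235 in WT, a log2 fold change of 0.11 (-0.03 to 0.25). In striatum it read 10572, 9151 and 9716 in KO and 11576, 10759, 10716 and 9971 in WT, a log2 fold change of -0.13 (-0.28 to 0.02). The difference between the tissues' KO effects was -0.25 ± 0.10 (SE), with the smallest p of the 38 genes for that contrast (limma adjusted p = 0.961). Averaged over the tissues, the 6 log2 fold changes were 0.01 for Cep68, -0.03 for Rab1a, -0.01 for Actr2, -0.07 for Sertad2, 0.01 for Aftph and -0.01 for Lgalsl. Their limma adjusted p were 1 in cortex, 0.386 to 0.906 in striatum and 0.648 to 0.964 in the average. The 95% intervals of all 9 genes within 1 Mb, which also take in Spred2, Peli1 and Vps54, lay inside ±0.5 log2 units in cortex, in striatum and in the average. None of the 9 had an unadjusted p below 0.05 in these comparisons.

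In cortex no neighbour passed the test across all genes (0 of 38 at adjusted p below 0.05, limma with Benjamini-Hochberg adjustment; the background was 0.00587% of 17030 genes, which is Slc1a4 itself). At an unadjusted p below 0.05 there were also 0 of 38, against 2.51% of all genes, and edgeR and DESeq2 on the recovered reads called 0, against 0.00587% and 0.0177% of all genes. The median log2 fold change was 0.03 over the neighbours and 0.00 over all genes, with 26 neighbours above zero and 12 below. The 95% intervals lay inside ±1 for all 38 neighbours and inside ±0.5 for 34.

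The smallest cortex p was that of Rel. It read 196.3, 202.1, 203.1 and 214.6 normalized counts in KO and 184.6, 175.9, 192 and 150.4 in WT, a log2 fold change of 0.22 ± 0.11 (SE; limma adjusted p = 1). All 4 KO libraries lay above the WT libraries, which held for 1 of 38 neighbours (2.63%) and for 4.02% of all genes. Rel starts 3438.3 kb from Slc1a4. Next came Xpo1, the main exporter of proteins from the nucleus, at 0.13 ± 0.07, Actr2 at 0.11 ± 0.07 and Fbxo48 at 0.34 ± 0.23, each with an adjusted p of 1. Fbxo48 read 27.3, 35.6, 29.5 and 41.1 in KO cortex and 25.4, 24.7, 22.9 and 31.1 in WT cortex, and the groups overlapped.

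**Figure D2:**
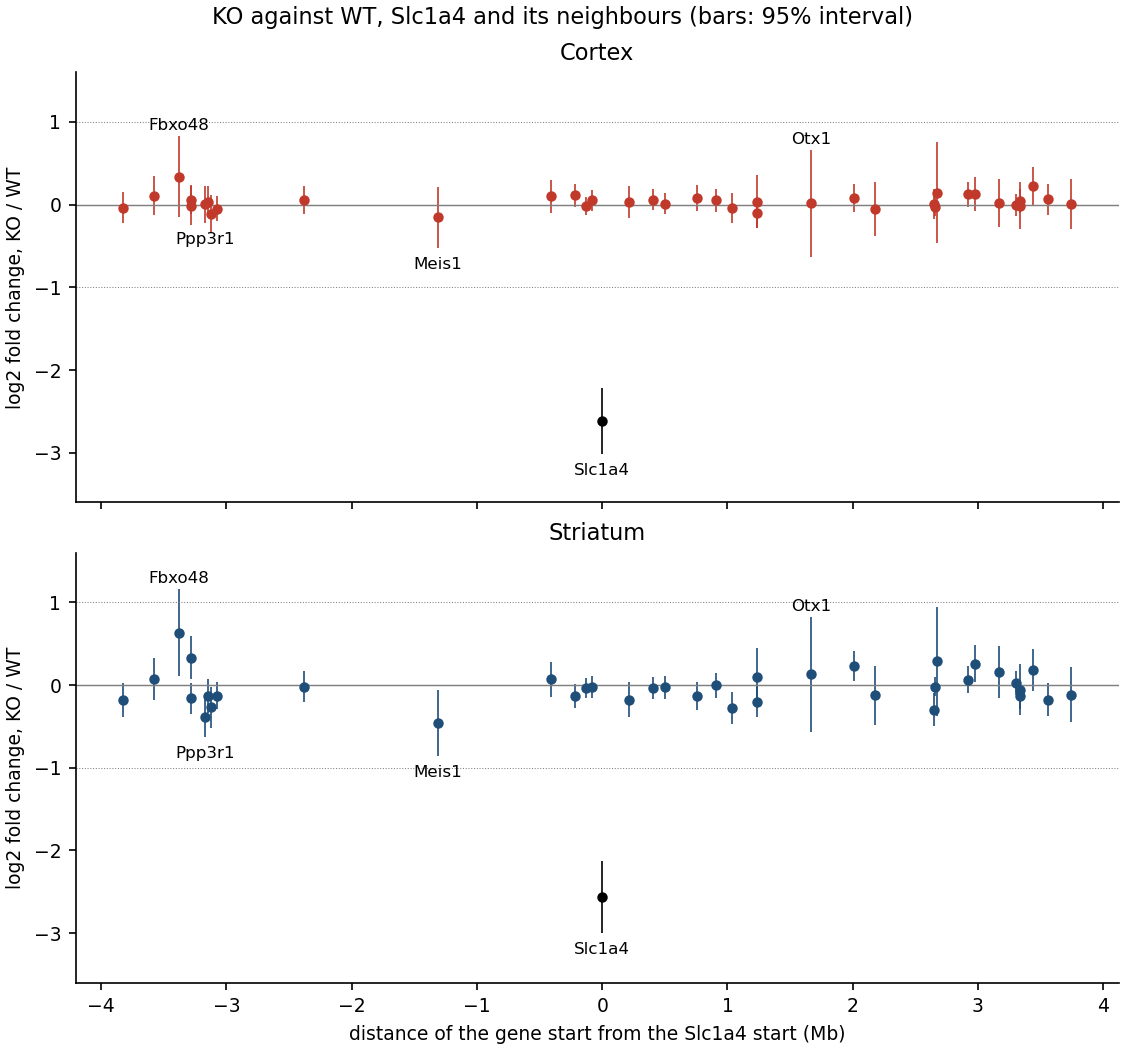
Log2 fold change of KO against WT (points) with its 95% interval (bars) for Slc1a4 (black) and the 38 neighbours, by distance in Mb between transcription starts, in cortex above and in striatum below; dotted lines mark a 2-fold change. Slc1a4 lies at -2.61 and -2.56, and all neighbours lie between -0.46 and 0.63.

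In striatum too no neighbour was called (0 of 38 by limma, edgeR and DESeq2; background 0.0763% of 17030 genes by limma, 0.0998% by edgeR and 2.13% of 15004 genes by DESeq2). The lowest adjusted p was 0.183 by limma and 0.052 by DESeq2, both for Ppp3r1. The 95% intervals lay inside ±1 for 37 of the 38 neighbours and inside ±0.5 for 31, and that of Fbxo48 reached 1.16. At an unadjusted p below 0.05 there were 10 of 38 (26.3%), 4 higher and 6 lower in KO, against 15.3% of all genes, 7.82% higher and 7.43% lower. All 10 started more than 1 Mb from Slc1a4: 4 of the 8 genes at 1 to 2.5 Mb, 6 of the 21 farther out and 0 of the 9 nearer. The median over the 38 was -0.04, against 0.01 over all genes, and 25 of the 38 were below zero. In this bulk tissue, fewer cells of a type and less RNA per cell cannot be told apart. The summed striatal markers had medians of 117250 in KO striatum and 175994 in WT striatum, and the cortical markers 13278 and 6197. For both lists the genotypes overlapped. For striatal markers all 3 KO libraries lay below WT replicates 5, 6 and 7, and 2 of them lay above WT replicate 8. For cortical markers 2 of the 3 KO libraries lay above every WT library. Each of the 10 genes with an unadjusted p below 0.05 went opposite to its own difference between striatum and cortex in WT. That WT difference was not called for Ppp3r1 and Usp34. The same WT striatum libraries enter both comparisons with opposite sign, which by itself favours opposite directions. The share over all genes was not computed, so nothing is drawn from this count. Whether regional makeup took part was not tested.

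Ppp3r1 had the smallest p. It read 18765, 17727 and 14763 normalized counts in KO striatum and 26705, 21664, 22472 and 18553 in WT striatum, a log2 fold change of -0.38 ± 0.11 (SE; limma adjusted p = 0.183). Its lowest KO and lowest WT values were those of replicates 4 and 8, and the groups overlapped. In cortex its means were 21330 in KO and 21315 in WT, a log2 fold change of 0.00. Wdr92, a cochaperone gene that shares exon sequence with Ppp3r1, differed by -0.13 in striatum.

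Commd1, which acts in copper handling and NF-kappaB regulation, read 191.6, 172.1 and 189.5 in KO striatum and 242.3, 218.5, 217.6 and 227.9 in WT striatum, a log2 fold change of -0.30 ± 0.09 (SE; limma adjusted p = 0.188). Every KO library lay below every WT library. Ugp2 showed the same separation, with 2587, 2565 and 2926 in KO and 3516, 3161, 3337 and 3051 in WT, a log2 fold change of -0.28 ± 0.09 (limma adjusted p = 0.209). Fbxo48 was separated the other way, with 20.8, 27.1 and 24.3 in KO and 12.5, 20.3, 19.1 and 10.6 in WT, a log2 fold change of 0.63 ± 0.25 (limma adjusted p = 0.256). These 3 genes are 7.89% of the neighbours, near the 8.07% of all genes whose KO and WT striatum libraries did not overlap.

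The other neighbours with an unadjusted striatum p below 0.05 overlapped between the genotypes. Ehbp1, which links membrane trafficking to actin, read 1473, 1643 and 1895 in KO and 1260, 1522, 1371 and 1517 in WT, a log2 fold change of 0.23 ± 0.09 (limma adjusted p = 0.238). Cnrip1, whose protein binds the cannabinoid receptor CB1, read 962.4, 974.3 and 948.4 in KO and 574.4, 812.9, 755 and 974 in WT, a difference of 0.33 ± 0.12. Its highest WT value was that of replicate 8 and its lowest that of replicate 5, and the difference was 0.44 without the first and 0.19 without the second. Meis1 read 404, 268.1 and 218.1 in KO and 435.6, 356.6, 379.2 and 409.1 in WT, a difference of -0.46 ± 0.19. KO replicate 2 reached the upper WT values for Meis1, and replicate 4 was the lowest. Usp34, a deubiquitinase, differed by 0.26, Pno1, a ribosome assembly factor, by -0.27, and Mdh1 by -0.20.

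**Figure D3:**
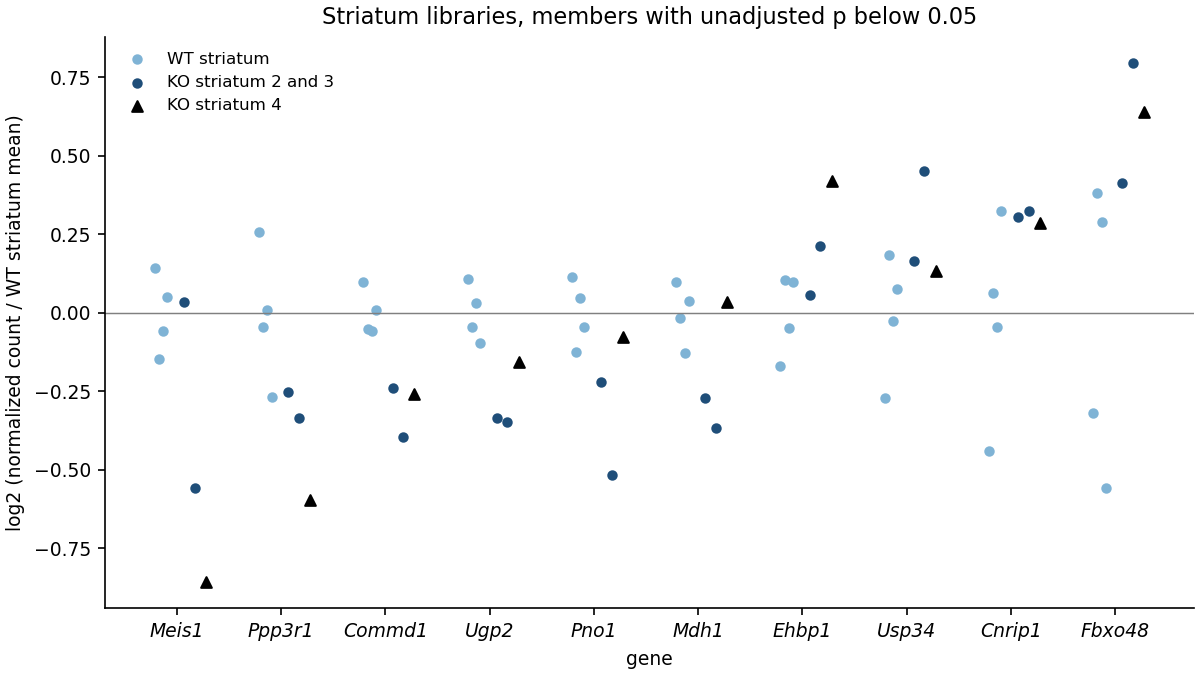
Striatum libraries for the 10 neighbours with an unadjusted p below 0.05, as log2 of the normalized count over the WT striatum mean; light points are WT, dark points KO replicates 2 and 3, and black triangles KO replicate 4. Replicate 4 is the lowest KO point for Meis1, Ppp3r1, Usp34 and Cnrip1 and the highest for Ehbp1, Mdh1, Ugp2 and Pno1.

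Several striatum values turned on KO replicate 4, the library that stood apart in its regional and choroid plexus markers. Mdh1 read 14127 and 13240 in KO replicates 2 and 3, below the WT values of 18278, 16856, 15623 and 17516, while replicate 4 read 17460. Without replicate 4, Mdh1 had a log2 fold change of -0.32 with a limma adjusted p of 0.0446. It was the only neighbour called in that setting (2.63% of the 38, against 3.03% of all genes). Without KO replicate 4 and WT replicate 8 together, Cnrip1 (0.45, adjusted p = 0.0378) and Mdh1 (-0.30, adjusted p = 0.0497) were called, 5.26% of the neighbours against 5.06% of all genes. Without KO replicate 4 and WT replicate 5 no neighbour was called, against 2% of all genes. Bcl11a read 1560, 1417 and 877.5 in KO striatum and 1409, 1439, 1531 and 1078 in WT striatum, low in replicates 4 and 8 alike, and differed by -0.12.

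Averaged over the tissues, no neighbour was called (0 of 38; background 0.0117% by limma; edgeR and DESeq2 also 0, against 0.0176% and 1.01% of all genes). At an unadjusted p below 0.05 there were 10 of 38 (26.3%), against 13.4% of all genes. The smallest p were those of Fbxo48 at 0.49 ± 0.17 (SE; limma adjusted p = 0.29), Usp34 at 0.19 ± 0.07 (adjusted 0.301), Ehbp1 at 0.15 ± 0.06 (adjusted 0.313) and Ugp2 at -0.16 ± 0.06 (adjusted 0.324). Fbxo48 is the lowest of the neighbours, with at most 41.1 normalized counts in any library. The median over the neighbours was -0.02, against 0.01 over all genes. All 38 intervals lay inside ±1 and 34 inside ±0.5.

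The fold changes of cortex and striatum, which share no libraries, had the same sign for 21 of the 38 neighbours (55.3%), against 61.5% of all genes. In the test of the difference between the tissues' KO effects, no neighbour was called (0 of 38; background 0.00587% by limma; edgeR and DESeq2 also 0, against 0.00587% and 0.11%), and 3 had an unadjusted p below 0.05 (7.89%, against 4.9% of all genes). These were Actr2, given above, Ppp3r1 at -0.38 ± 0.16 and Commd1 at -0.30 ± 0.13. Cnrip1 followed at 0.34 ± 0.16, with an adjusted p of 0.961 as for the other 3. The median of this contrast was -0.07 over the neighbours, 28 below zero and 10 above. Over all genes it was -0.00088, with 8551 below and 8479 above. All 9 genes within 1 Mb were below zero. Of these 9, 8 were above zero in cortex and 8 below zero in striatum, against 8599 and 8229 of all 17030 genes. These directions were not tested. Oppositely transcribed neighbours whose starts lie within 795 bases of each other did not all have the same sign in striatum: Plek, a substrate of protein kinase C, differed by -0.16 and Cnrip1 by 0.33, Mdh1 by -0.20 and Wdpcp by 0.10, and the peroxisomal import gene Pex13 by -0.13 and Pus10, a pseudouridine synthase, by -0.06.

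A further 8 tested genes within 5 Mb, which were not on the list, had no call in any KO comparison, with medians of 0.06 in cortex and 0.05 in striatum. Their striatum values reached past those of the neighbours, from -0.94 for 9130230N09Rik (95% interval -1.77 to -0.11; the genotypes did not overlap) to 0.91 for A830031A19Rik, both low genes with limma adjusted p of 0.276 and 0.329. A830031A19Rik was high in KO striatum replicate 3 alone, at 21.9. The other KO striatum libraries read 5.5 and 4.2, and WT striatum 2.3 to 5.1. In cortex it was lower in KO without overlap, at 7.5 to 12.5 against 13.2 to 16.5. In each tissue 1 of the 8 genes was separated (12.5%), against 4.02% of all genes in cortex and 8.07% in striatum. Over 1283 tested genes of chromosome 11 outside the stretch the medians were -0.02 and 0.00, with 0 and 1 called.

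The second question was how the same genes differed between the tissues, where changes were readily detected. In WT, 20 of the 38 neighbours differed between striatum and cortex (limma adjusted p below 0.05; background 50.5% of all genes), 13 higher in striatum (background 24.9%) and 7 lower (25.7%). In KO, 13 differed (background 37.9%), 7 higher (18.4%) and 6 lower (19.5%), and 12 genes were called in both genotypes. The 52.6% of neighbours called in WT and the 34.2% called in KO lay near the background. By direction, those higher in WT striatum (34.2%) stood above it and those lower (18.4%) below it, and these gaps were not tested. Over the alternative settings the count ranged from 17 to 23 in WT, while 32.8% to 54.3% of all genes were called, and from 10 to 14 in KO, while 23.6% to 40.3% were.

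The genes with the largest tissue differences were Meis1, Otx1 and Bcl11a. Meis1 read 69.7, 73.2, 59.4 and 98.3 normalized counts in WT cortex against the 356.6 to 435.6 of WT striatum, a log2 difference of 2.40 ± 0.17 (SE; limma adjusted p = 7.51e-08). In KO it read 62.5, 67.4, 68 and 67.2 in cortex, and striatum was 4.28-fold higher (limma adjusted p = 1.23e-06). Otx1 went the other way, with 186.5, 174, 157.2 and 151.4 in WT cortex and 50, 36.6, 56.1 and 49.8 in WT striatum, a difference of -1.79 ± 0.30 in WT and -1.68 ± 0.33 in KO. Otx1 was uneven in KO striatum, at 62.4, 22.9 and 97.4. Bcl11a was also lower in striatum, at -1.02 ± 0.14 in WT and -1.14 ± 0.16 in KO, with 2560 to 2843 over all cortex libraries and 877.5 to 1560 over all striatum libraries. In all 3 genes the tissues did not overlap in either genotype, as held for 47.3% of all genes in WT and 41.5% in KO.

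Among the other genes higher in WT striatum, Wdr92 differed by 0.62 ± 0.09, Plek by 0.59 ± 0.08, C1d, a cofactor of the nuclear exosome, by 0.53 ± 0.07, Peli1, a ubiquitin ligase of innate immune signalling, by 0.46 ± 0.07 and Commd1 by 0.42 ± 0.08. In KO these differences were 0.45, 0.37, 0.45, 0.25 and 0.12 (not called for Commd1). Cct4, a subunit of the chaperonin that folds actin and tubulin, differed by 0.24 in WT and 0.25 in KO, and Sec61g by 0.41 and 0.26. Ugp2, Pno1, Pex13, Actr2 and Mdh1 were called higher in striatum in WT, with differences of 0.23 to 0.41, and were not called in KO. The KO effect in striatum minus that in cortex, which tests this change, was called for none of them.

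Among the genes lower in WT striatum, Cnrip1 differed by -0.82 ± 0.11, Fbxo48 by -0.74 ± 0.23 and Spred2, an inhibitor of Ras and MAP kinase signalling, by -0.54 ± 0.09. In KO they differed by -0.48, -0.44 (not called) and -0.57. Cep68, the nearest neighbour of Slc1a4, differed by -0.16 in WT and -0.23 in KO. Ehbp1 was called in WT at -0.21, and Ppp3r1 was called in KO at -0.33, where its WT difference was 0.06. Without KO striatum replicate 4 the KO difference of Ppp3r1 was -0.22.

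The smaller tissue calls depended on single libraries. In WT, Ehbp1 was no longer called without any 1 of cortex replicates 5, 6 and 8 and striatum replicates 5 and 7 (limma adjusted p = 0.0578 to 0.124). Cep68 was no longer called without cortex replicate 5 or 8 or striatum replicate 5, 6 or 8 (limma adjusted p = 0.0595 to 0.0878), and Mdh1 without cortex replicate 6, 7 or 8 or striatum replicate 5 or 8 (0.0553 to 0.0748). In KO, Ppp3r1 was no longer called without KO cortex replicate 1, 3 or 4 or KO striatum replicate 3 or 4 (0.0518 to 0.162), and Peli1 without KO cortex replicate 4 or KO striatum replicate 2 or 3 (0.0586 to 0.106). Sec61g lost its KO call without any 1 of 10 libraries, among them KO striatum replicates 2 and 3 and KO cortex replicates 1, 2 and 4, and otherwise WT cortex replicates 5 and 8 and WT striatum replicates 6, 7 and 8, which enter only through the shared variance (0.0503 to 0.169). The other 15 genes called between the tissues kept their calls in each genotype whichever library was left out.

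**Figure D4:**
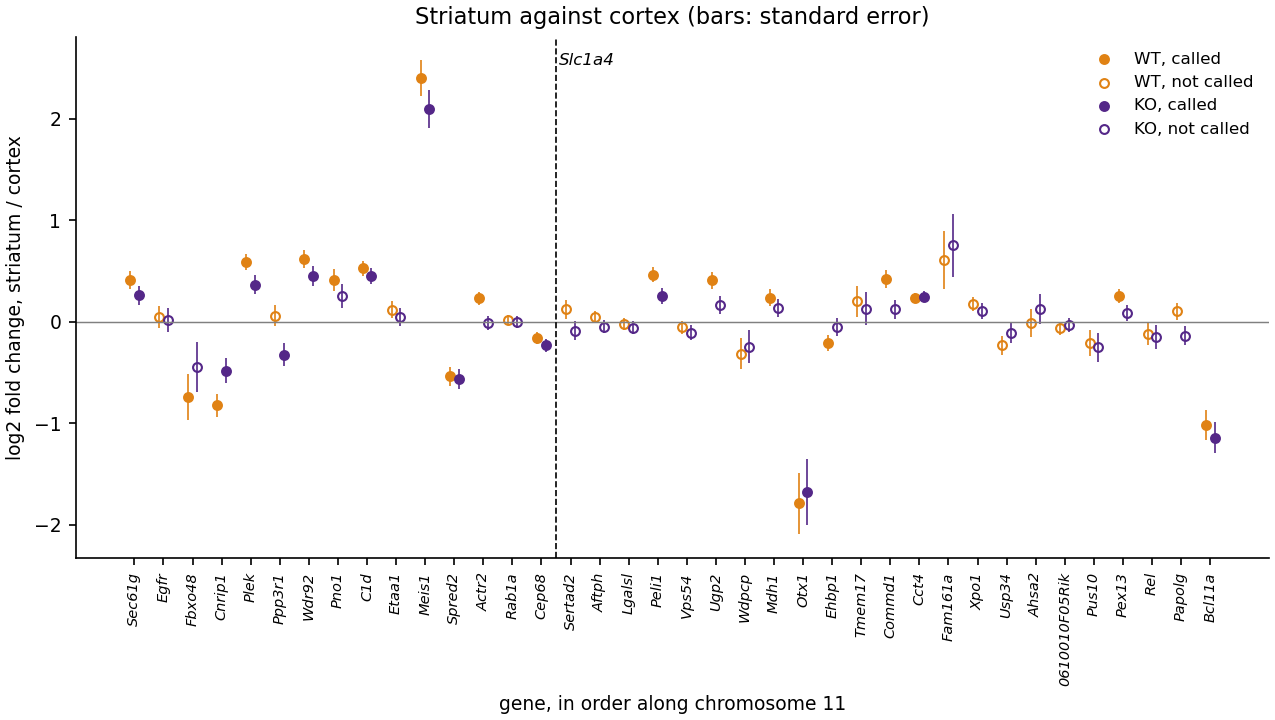
Log2 fold change of striatum against cortex in WT (orange) and KO (purple), with standard errors, for the 38 neighbours in order along chromosome 11; filled points are called at an adjusted p below 0.05, and the dashed line marks Slc1a4. Meis1 stands highest, at 2.40 in WT, Otx1 and Bcl11a stand lowest, and Rab1a, Aftph and Lgalsl close to the dashed line lie near zero. Directly beside the line, Cep68 is called lower in both genotypes and Sertad2 is called in neither.

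The remaining neighbours were not called in any of the 6 comparisons. They are Egfr, the receptor of epidermal growth factor, the DNA damage gene Etaa1, Rab1a, Sertad2, Aftph, Lgalsl, the trafficking gene Vps54, Wdpcp, the ciliary transition zone gene Tmem17, Fam161a, Xpo1, Usp34, the cochaperone gene Ahsa2, 0610010F05Rik, Pus10, Rel and the poly(A) polymerase gene Papolg. Their log2 fold changes in KO against WT ran from -0.05 (Tmem17) to 0.22 (Rel) in cortex and from -0.18 (Sertad2) to 0.29 (Fam161a) in striatum. Fam161a was the most variable of them in WT striatum, at 183.1, 85.4, 94.2 and 68.9, with the high value in replicate 5. It read 98.5, 108.5 and 172.5 in KO striatum, with the high value in replicate 4. These are the libraries with the most choroid plexus transcripts, and a link to the Fam161a values was not tested.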

How the data were processed

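RNA-seq was deposited for 15 libraries in 1 table of normalized signal values, in which the authors had scaled each library's gene counts by its own size factor. Every library could be brought back to whole reads (100% of values within 0.01 of a whole number). The submitters' processing notes name DESeq2 1.12.4, HTSeq 0.6.0, TopHat2 2.1.1, cutadapt 1.1 and FastQC 0.11.5 beside GRCm38, with no role or order. Per the labels' protocols, libraries were made from total RNA with the NEBNext Ultra RNA kit. The annotation release is not given in the sources used here.

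Genes with a value of 10 or more in at least 3 libraries (17030) were tested with limma 3.58.1 in R 4.3.3 on log2(normalized count + 1), with a mean per group, a variance trend and 11 residual degrees of freedom, and Benjamini-Hochberg adjustment over all of them. Fold changes are on that scale, which understates changes of low genes, and intervals are 95%. Named genes were the 3 nearest on either side, the 4 smallest p per KO comparison and up to 6 called genes per direction between the tissues, and other members are named with values as a description. Alternatives were other pseudocounts, no filter, TMM scaling, edgeR 4.0.16 and DESeq2 1.42.0 on recovered reads, single-tissue fits, a replicate block, removal of a length trend and leaving out libraries. The test was tried on simulated data. The members and lists were chosen with earlier results of these data known. Counts cover counting and sample error only, and the depth was 22990233 to 30276815 reads per library.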

Additional observations from a re-analysis of the deposited data

Results flagged for a closer look

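Of 117 groups of 4 libraries, 10 (8.55%) held 1 library far from the other 3 by Dixon's criterion at 95%, which chance meets in about 1 of 20 groups. In KO cortex these were Sec61g in replicate 3 (388.2 normalized counts, against 353.7 to 354.6), Meis1 in replicate 1 (62.51, against 67.18 to 67.99), Otx1 in replicate 4 (183.8, against 163.7 to 163.8), Tmem17 in replicate 2 (140.4, against 95.17 to 99.5) and Slc1a4 itself in replicate 2 (307.9, against 248.7 to 251.8). In WT cortex it was Spred2 in replicate 8 (2886, against 2181 to 2254). In WT striatum Egfr and Etaa1 were low in replicate 5 (493.6 and 325.3), and C1d and Sertad2 were low in replicate 8 (1185 and 870.1). KO striatum, with 3 libraries, was not examined, so the lack of flags there is no result. No causes were tested, and the share of flagged groups over all tested genes was not computed.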

How the results depend on the processing

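The count of neighbours called for KO against WT was 0 in all 26 alternatives in cortex, all 25 for the average and all 25 for the tissue difference, with lowest adjusted p of 0.746, 0.0688 and 0.18. For 1 tissue, leaving out libraries of the other tissue keeps every fold change and acts only through the shared variance. Those settings are therefore weak checks. In striatum the count was 0 in 24 of 26. It ranged from 0 to 1 when single libraries were left out (1 without KO replicate 4, or 2.63% against 3.03% of all genes) and was 2 without KO replicate 4 and WT replicate 8 (5.26% against 5.06%). The fall of Slc1a4 in striatum was -2.56 in the single-tissue fit, with an adjusted p of 0.0926 (limma, 7 libraries). Values near zero changed sign when single libraries were left out: Rab1a in cortex (-0.0406 to 0.00426), Lgalsl in cortex (-0.016 to 0.0432), striatum (-0.0963 to 0.0252) and average (-0.0426 to 0.0181), Cep68 in striatum (-0.039 to 0.00858), and the averages of Actr2 (-0.0372 to 0.0149) and Aftph (-0.00638 to 0.0386). Lgalsl also read 0.0223 in striatum and 0.0167 in the average without KO replicate 4 and WT replicate 8, and 0.000517 in the average with a length trend removed, where Aftph read -0.0106. The average of Actr2 read 0.0113 without KO replicate 4 and WT replicate 5, a setting chosen after the markers were seen. The cause of these sign changes was not tested.

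Replicate numbers are shared between the tissues, but the labels do not say whether a number marks 1 animal. Same-numbered libraries deviated together weakly, with positive correlations of 0.00369 to 0.142 over 7 pairs, 2 of them over 0.1. Of the 7 striatum libraries, 5 correlated best with their own number. The main fit did not use the numbers. With the replicate block the neighbours called were 0 in each KO comparison, 20 between the tissues in WT (52.6%, against 48.8% of all genes) and 11 in KO (28.9%, against 31.5%). The block was a shared correlation of 0.113 for KO against WT in each tissue and their average. For the tissue comparisons and the difference of KO effects it was a fixed term per replicate number. That term leaves KO cortex replicate 1, which has no striatum library, without weight. In WT, Ehbp1 and Cep68 were then not called (limma adjusted p = 0.0601 and 0.0621) and Xpo1 and Usp34 were (0.0449 and 0.043). In KO, Ppp3r1 and Sec61g were not called (0.0827 and 0.0934). Their log2 fold changes, -0.33 and 0.25, were those found without KO cortex replicate 1, where both calls were lost too. Few reads limit Fbxo48 and B3gnt2, and 3 to 4 libraries per group limit the precision of all intervals.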
